A study of Mus musculus with 2 samples.

Results

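Ncam1, 3 cadherins (Cdh2, Cdh11 and Cdh13), Vcam1, Alcam, Cd44 and Gja1 were followed in single mouse fibroblasts sorted by a circadian clock reporter. These 8 genes were taken by name from 33757 features of the deposited count table. Ncam1 was chosen by its measured counts, which were among the largest falls toward bright Venus fluorescence, so its change along that axis is given as a description, with no test. The other 7 genes were added as genes of cell contact, with results of these data already known.

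The cells were NIH3T3-Rev-VNP1-H2B-iRFP fibroblasts, a derivative of the mouse embryonic fibroblast line NIH3T3. It carries a Venus reporter for Nr1d1, the clock repressor also called Rev-erb alpha, and H2B-iRFP, a histone tagged with a near-infrared protein. Both reporters are shared by all cells compared. The culture was not synchronized, was taken at 95% confluency about 5 days after seeding, and was detached with trypsin before single cells were sorted into 2 plates of 384 wells. Each plate held 4 Venus gates of 96 cells, numbered here from bin 1 (dimmest) to bin 4 (brightest) by recorded fluorescence. Plate 1 held only the high and plate 2 only the low H2B-iRFP sort, so plate and iRFP sort cannot be told apart. Each gate filled the same 6 columns on both plates, so Venus bin and plate position cannot be told apart either. Nothing in the labels says whether the plates came from separate cultures or whether the line is a single clone, and p-values measure only the spread between sums of cells, which may be technical.

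Of 768 cells, 762 were kept, 383 on plate 1 and 379 on plate 2, and no cell name occurred on both plates. Counts summed per plate and bin ranged from 76042157 to 86612194. The median cell held 835930 counts on plate 1 and 857229 on plate 2. Fibroblast markers fitted the label: 11 of 12 reached 1 CPM (counts per 1000000 counts of the sum) on average, and their summed level ran from 22913 to 29564 CPM over the 8 sums. Defining markers of other types were low, with 2 Epcam, 1 Ptprc, 48 Cdh5, 299 Pecam1 and 9 Sox10 counts in all cells together. Myod1, Myog and Rbfox3 were not found among the gene symbols of the count table. Of the defining markers, Cdh1 (E-cadherin, an epithelial cadherin) was present, with a count in 43.4% of cells at 3.31 to 7.25 CPM. Other listed markers found in many cells were Krt14 (72.7% of cells, mean 33.4 CPM), Lyz2 (53.0%, 8.16 CPM) and S100b (46.9%, 6.27 CPM). Summed marker lists ranged from 26.2 to 44.7 CPM for epithelial cells, from 0.955 to 3.08 for endothelial cells and from 6.33 to 12.7 for leukocytes. They ranged from 1.66 to 14.9 CPM for skeletal muscle and from 9.12 to 30.0 for neural and Schwann cells.

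Cells in a confluent layer touch each other through several kinds of membrane protein. Classical cadherins such as N-cadherin, the product of Cdh2, bind the same cadherin on the next cell and are tied to actin by catenins. NCAM1, VCAM-1 and ALCAM carry immunoglobulin domains: NCAM1 and ALCAM can bind their own kind on a neighbouring cell, while VCAM-1 is bound by integrins such as alpha4 beta1. CD44 binds hyaluronan in the matrix and is linked to actin by ERM proteins (ezrin, radixin, moesin). Connexin 43, the product of Gja1, builds gap junction channels between cells.

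Levels of the 8 genes fell into 3 classes. Per kilobase of exon, Cd44 averaged 22.3 ± 3.37 CPM (SD over the 8 sums, which come from 2 plates), Cdh2 18.2 ± 2.74, Gja1 18.1 ± 3.14 and Ncam1 9.16 ± 4.69. On the same scale Alcam averaged 1.20 ± 0.519 and Vcam1 1.00 ± 0.432. The ranges of Cd44, Cdh2 and Gja1 overlapped, as did those of Alcam and Vcam1, so the order within each of these sets is within their spread. The highest Ncam1 sum, 16.1 CPM per kilobase in bin 1, lay inside the range of Cdh2, and the lowest, 4.67, lay below all sums of Cdh2, Gja1 and Cd44.

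The other 2 cadherins were at the edge of detection. Cdh11, a cadherin of mesenchymal cells, had 6 counts in 5 of 762 cells. Cdh13, a cadherin held in the membrane by a lipid anchor, had 7 counts, all in 1 cell of bin 4 on plate 1. Cdh11 did not exceed 3 counts in any sum, and Cdh13 was at 0 in 7 of the 8. For a count of 0 in the plate 1 bin 1 sum, the exact 95% Poisson interval reaches 0.0485 CPM. Both failed the filter on low counts, which left 6 of the 8 genes in the fit over all genes, and neither was detected well enough to follow along the Venus axis.

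Ncam1 was highest in the dimmest cells and lower in each brighter bin on both plates. On plate 1 its level was 139 CPM in bin 1, 91.8 in bin 2, 68.2 in bin 3 and 45.7 in bin 4. On plate 2 the 4 levels were 139, 64.9, 44.9 and 40.5 CPM. The bin 1 sums of the 2 plates agreed to within their counting error, and both lay above all 6 sums of bins 2 to 4. The fitted trend was a fall of 0.58 ± 0.04 on the log2 scale per bin (SE, 8 sums). Taken alone, plate 1 fell by 0.55 per bin and plate 2 fell by 0.59. Bin 4 stood at -1.76 log2 against bin 1.

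The descent was not even over the axis. Ncam1 fell by 0.86 ± 0.13 log2 from bin 1 to bin 2, by 0.48 ± 0.13 from bin 2 to bin 3 and by 0.41 ± 0.13 from bin 3 to bin 4. The first step was -0.62 on plate 1 and -1.10 on plate 2, while the last was -0.62 on plate 1 and -0.19 on plate 2. Plate 2 thus covered most of its range in the first step, and plate 1 descended at each step. These differences between plates were not tested.

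**Figure D1:**
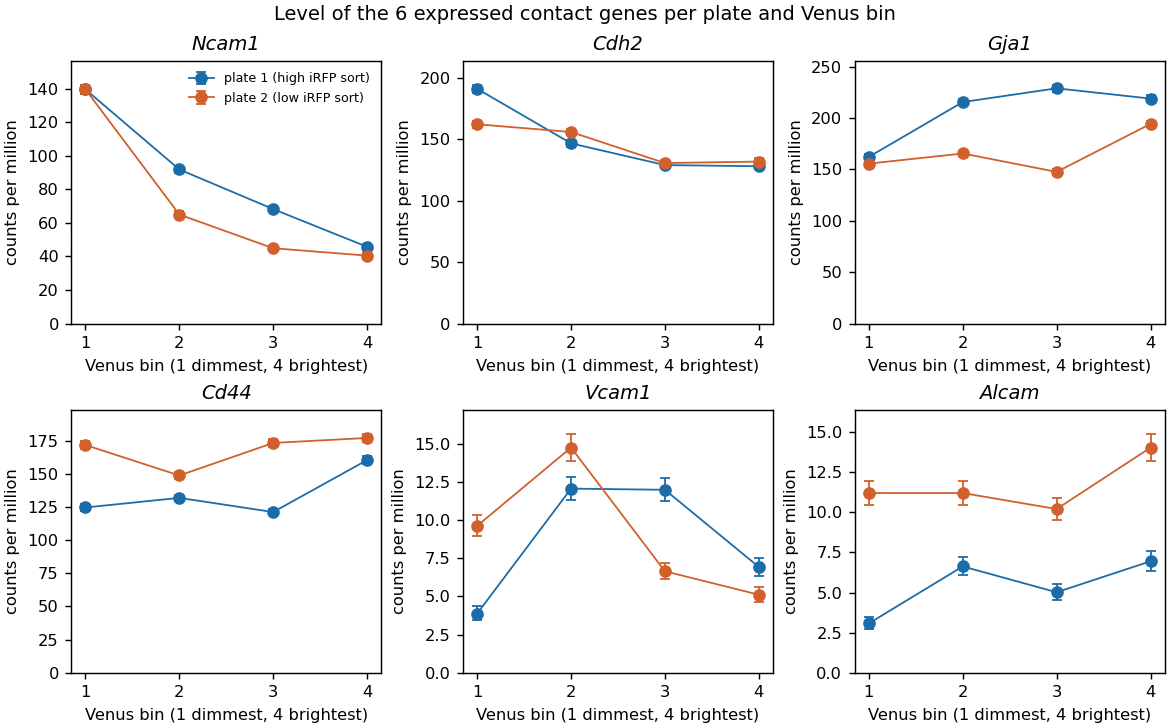
Level of each of the 6 expressed genes in CPM (vertical axis) against Venus bin (horizontal axis), 1 point per plate and bin, with 95% Poisson intervals that cover counting error only. Ncam1 descends on both plates from 139 CPM to 45.7 and 40.5, Cdh2 descends to about 130, and Alcam and Cd44 lie higher on plate 2 in all 4 bins.

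Within single cells, the lower sums of Ncam1 came with both fewer cells holding a count and lower levels in those that did. The share of cells with an Ncam1 count was 96.8% in bin 1 of plate 1 (exact 95% binomial interval 91.0 to 99.3%), 80.2% in bin 2, 75.0% in bin 3 and 47.9% in bin 4 (37.6 to 58.4%). On plate 2 the shares were 94.7% (88.1 to 98.3%), 84.0%, 72.9% and 61.7% (51.1 to 71.5%). Among cells with a count, the median level went from 129 CPM in bin 1 to 41.6 in bin 4 on plate 1, and from 136 to 38.4 on plate 2. After each cell was thinned to 697000 counts, which left out 76 shallower cells, the shares in bins 1 and 4 were 94.9% and 45.5% on plate 1 and 95.2% and 60.0% on plate 2. The gates left out between 3 and 19 cells each.

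Cells with high Ncam1 remained in the brightest gates. The highest single cell of bin 4 held 491 CPM on plate 1, close to the 506 CPM of the highest cell of bin 1. The share of cells at 100 CPM or more was 71.6% in bin 1 and 17.7% in bin 4 on plate 1, and 63.2% and 14.9% on plate 2. The 10% of cells with the most Ncam1 held 23.3% of its counts in bin 1 of plate 1 and 59.7% in bin 4. On plate 2 these shares were 27.3% and 50.6%. The brightest gates therefore held cells at 0, cells with a count at lower levels, and a minority at 100 CPM or more.

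**Figure D2:**
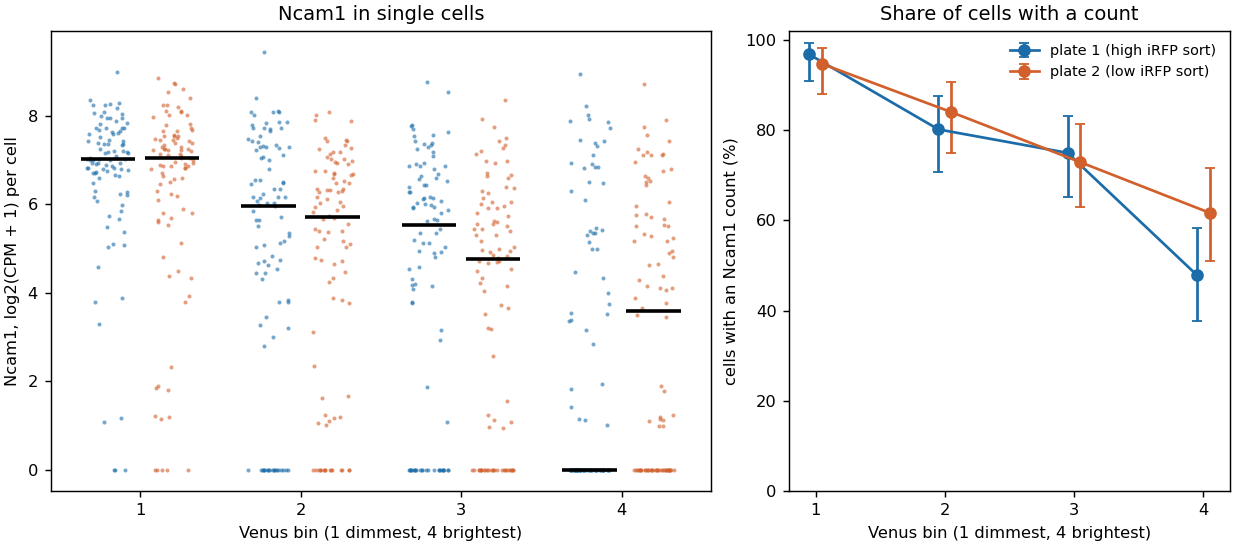
Left, Ncam1 in each of 762 cells as log2(CPM + 1), with 1 point per cell, black bars at the median of each plate and bin, and blue and orange for plates 1 and 2. Right, the percentage of cells with an Ncam1 count and its exact 95% binomial interval, from 96.8% and 94.7% in bin 1 to 47.9% and 61.7% in bin 4.

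Of the 5 members tested along the Venus axis, Cdh2 was the only one called. Its level was 191, 147, 129 and 128 CPM in bins 1 to 4 of plate 1, and 162, 156, 130 and 132 CPM on plate 2. The 2 sums of bin 1 were the highest, and the counting intervals of bins 3 and 4 overlapped on each plate. Cdh2 fell by 0.17 ± 0.03 log2 per bin (edgeR quasi-likelihood test, adjusted p = 0.00736 over 18430 genes), by 0.22 on plate 1 alone and by 0.12 on plate 2 alone. That made 1 of 5, against 15.4% of all genes tested in either direction and 8.64% that fell, a share near the background. Unlike Ncam1, Cdh2 had a count in every one of the 762 cells. Its steps were -0.23 ± 0.09, -0.23 ± 0.09 and -0.04 ± 0.09 log2 from bin 1 to bin 4, and none passed the test (adjusted p = 0.278, 0.519 and 0.876).

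Gja1 had the highest mean CPM over the 8 sums, though not in every sum, and was not called. Its level was 162, 216, 229 and 219 CPM on plate 1 and 156, 165, 148 and 194 CPM on plate 2. Bin 1 was lowest on plate 1 and bin 3 lowest on plate 2. The trend was 0.09 ± 0.04 log2 per bin (adjusted p = 0.141). Gja1 was found in 758 of 762 cells. In an alternative fit, limma on the mean log2(CPM + 1) over cells, Gja1 rose by 0.16 per bin with an adjusted p of 0.0239. That fit differs in the weight of cells, the scale and the test together.

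Cd44 showed no called trend, at 0.05 ± 0.03 log2 per bin (adjusted p = 0.342). Its level was 125, 132, 121 and 160 CPM on plate 1, where bin 4 stood above the rest, and 172, 149, 173 and 177 CPM on plate 2. Every cell held a Cd44 count. Alcam was sparse, with a count in 43.2% of cells. Its level was 3.08, 6.63, 5.02 and 6.95 CPM on plate 1 and 11.2, 11.2, 10.2 and 14.0 CPM on plate 2. Its trend of 0.16 ± 0.07 log2 per bin did not pass the test (adjusted p = 0.191).

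Vcam1 peaked in a middle bin on both plates. Its summed level ended above bin 1 on plate 1 and below bin 1 on plate 2. Its level was 3.88, 12.1, 12.0 and 6.94 CPM on plate 1 and 9.63, 14.8, 6.65 and 5.12 CPM on plate 2, with a count in 31.9% of cells. The fitted trend was -0.11 ± 0.14 log2 per bin (adjusted p = 0.647), made of 0.22 on plate 1 alone and -0.39 on plate 2 alone. A few cells carried most Vcam1: in bin 1 of plate 2 the top 10% of cells held 94.1% of its counts, and 1 cell reached 816 CPM. Split by well column, that bin stood at 17.4 and 2.07 CPM, so whether bin 4 lay below it depends on few cells. The share of cells with a Vcam1 count was highest in the middle bins, at 38.5% and 44.8% in bins 2 and 3 of plate 1 and 36.2% and 31.3% on plate 2. In bin 1 these shares were 25.3% and 22.1%, and in bin 4 they were 27.1% and 29.8%.

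**Figure D3:**
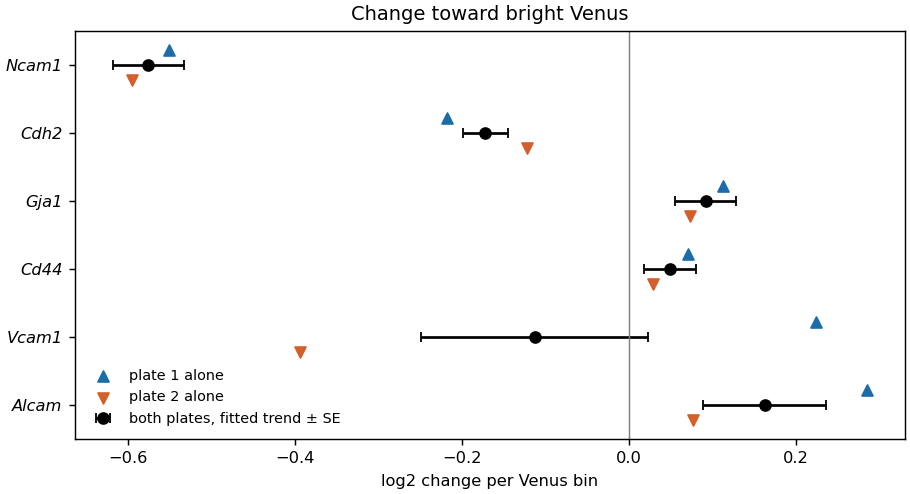
Fitted log2 change per Venus bin (horizontal axis) for the 6 expressed genes, with the standard error as a bar and the trend of each plate alone as triangles. Ncam1 lies at -0.58 and Cdh2 at -0.17 on the same side on both plates, while the plates lie on opposite sides of 0 for Vcam1.

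None of the other 5 members tested passed at any single step between neighbouring bins, where 0.271%, 0.0651% and 0.26% of all genes were called. At an unadjusted p under 0.05 the shares of all genes were 14.7%, 9.01% and 15.8%. The largest step among these 5 was that of Vcam1 from bin 1 to bin 2, 0.99 ± 0.42 log2 (adjusted p = 0.332).

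Markers of division were highest in bin 4 on both plates, without an even rise over the bins. The mean G2/M score of bin 4 was 2.73 on plate 1 and 2.91 on plate 2, against 2.13 and 2.51 in bin 1. On plate 1 it stood at 2.17 in bin 2 and 2.28 in bin 3. On plate 2 it was lowest in bin 3, at 2.34, and only bin 4 stood above bin 1. Within gates, the G2/M score was positively correlated with Gja1 (mean Spearman rho 0.147) and Cd44 (0.138) in 8 of 8 gates, and the S phase score with Gja1 (0.156) in 8 of 8. For Ncam1 the mean rho was 0.084 with the G2/M score, positive in 7 of 8 gates, and 0.01 with the S phase score. The part of cycle state in the values along the bins was not tested.

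Cells inside a gate also differ in Venus fluorescence, by differences that the gates did not separate. Cells of each gate were divided at its median Venus fluorescence, which gave 8 pairs of sums whose brighter cells were 1.30 to 1.87 times as bright as the dimmer ones. Ncam1 was lower in the brighter cells in 6 of 8 gates, at -0.19 ± 0.15 log2 (adjusted p = 0.947). The 2 exceptions were bin 1 of plate 1, with 139 CPM in the dimmer and 140 in the brighter cells, and bin 4 of plate 1, with 30.3 and 60.5 CPM. With plate 1 alone the difference turned to 0.06. None of the 6 members passed the test in this split, and none of 14856 genes did (0.0% called), with 801 genes (5.39%) at an unadjusted p under 0.05. Cd44 was higher in the brighter cells in 7 of 8 gates, at 0.14 ± 0.04 log2 (unadjusted p = 0.0028, adjusted p = 0.896).

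The same comparison by well column, the right 3 columns of a gate against the left 3, gave 0.01 ± 0.10 log2 for Ncam1 (adjusted p = 0.997). Ncam1 was higher to the right in 3 gates and lower in 5, and the value ran from -0.17 to 0.18 when either plate was left out. Gja1 was lower to the right in 7 of 8 gates, at -0.12 ± 0.05 log2 (unadjusted p = 0.0278, adjusted p = 0.997). Split by forward scatter, which grows with the size of a cell, Gja1 was 0.17 ± 0.07 log2 higher in the cells of higher scatter in 6 of 8 gates (unadjusted p = 0.0318, adjusted p = 0.557). In neither split was any gene called by edgeR (0.0% called; at an unadjusted p under 0.05, 624 of 14859 genes by column, 4.2%, and 1219 of 14835 by scatter, 8.22%).

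Alcam and Cd44 differed between the plates in the same direction. Alcam stood at 5.44 CPM on plate 1 and 11.6 on plate 2, a ratio of 0.468 (exact 95% interval 0.442 to 0.495, counting error only). Cd44 stood at 134 and 168 CPM, a ratio of 0.798 (0.788 to 0.809). Both were lower on plate 1, the high iRFP sort, in 4 of 4 bins. Gja1 was higher on plate 1 in 4 of 4 bins, at 207 against 165 CPM. Ncam1 stood at 86.0 and 71.9 CPM, Cdh2 at 148 and 145, and Vcam1 at 8.88 and 8.93. With 1 plate per sort there is no test of these differences.

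Within gates, recorded iRFP fluorescence divided Alcam and Cd44 in that same direction. In cells above their gate's median iRFP, summed Alcam was lower in 8 of 8 gates. The smallest gap was 2.99 CPM against 3.16 in the cells below the median, in bin 1 of plate 1. The largest was 7.50 against 14.9 CPM, in bin 2 of plate 2. The difference fitted by edgeR was -0.46 ± 0.12 log2 (unadjusted p = 0.00243, adjusted p = 0.850). Cd44 was also lower in 8 of 8, at -0.17 ± 0.05 log2 (unadjusted p = 0.00443, adjusted p = 0.850). Neither passed the adjusted threshold, and none of 14862 genes did (0.0% called), with 833 (5.6%) at an unadjusted p under 0.05. Ncam1 differed by 0.12 ± 0.08 log2 in this split (adjusted p = 0.921). Gja1, which was higher on plate 1, was higher in 4 gates and lower in 4, at 0.06 ± 0.08 log2. Over single cells within gates, correlations with iRFP fluorescence were weak. The mean Spearman rho was -0.06 for Alcam, positive in 2 of 8 gates, and -0.08 for Cd44, positive in 0 of 8. The direction of Alcam and Cd44 was not particular to iRFP. In cells of higher forward scatter, Alcam was lower in 6 of 8 gates (-0.33 ± 0.25 log2, adjusted p = 0.762). Cd44 was lower there in 7 of 8 (-0.13 ± 0.07 log2, adjusted p = 0.659). Median scatter was also higher on plate 1 in each bin.

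Correlations between members over the cells of a gate were weak. They are means over the 8 gates, and cells of a gate share library, depth and plate. Alcam and Cd44 formed the highest of 15 pairs, with a mean rho of 0.249 that was positive in 8 of 8 gates (0.143 to 0.419). Ncam1 and Vcam1 followed at 0.165, positive in 6 of 8. The lowest pairs were Cdh2 with Cd44 at -0.17 and Ncam1 with Alcam at -0.16, each positive in 1 gate. Ncam1 and Cdh2, which both fell between gates, had a mean rho of -0.03 inside them and were positive in 4 of 8 gates.

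**Figure D4:**
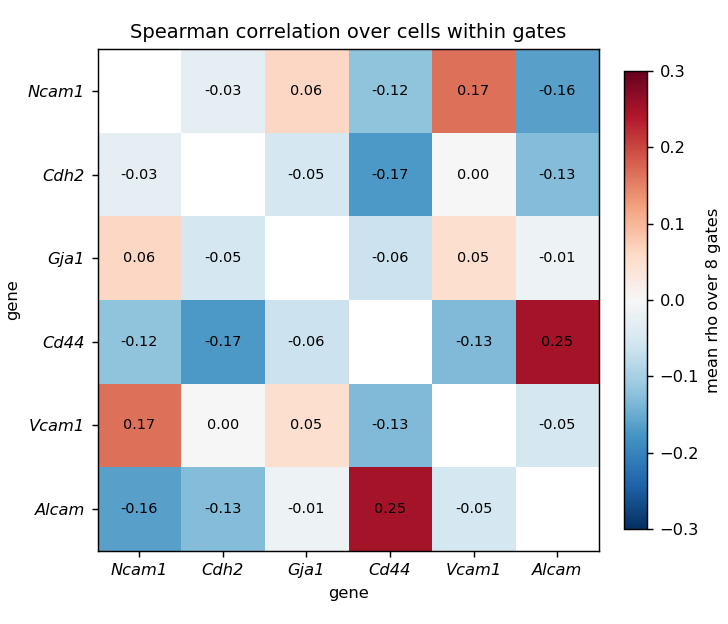
Spearman correlation of CPM over cells within a gate, averaged over the 8 gates, for each pair of the 6 expressed genes (both axes list the genes). Alcam with Cd44 has the highest value, 0.25, and Cdh2 with Cd44 the lowest, -0.17.

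Ncam1 was set beside the clock genes in the same way. Over whole plates, which include the differences between gates, its rho with Nr1d1 transcript was -0.43 on plate 1 and -0.45 on plate 2. With recorded Venus fluorescence it was -0.45 on both. Ncam1 was chosen by its fall between these gates, so these whole-plate values restate that choice. Within gates the mean rho with Nr1d1 was -0.10 (-0.02 on plate 1 and -0.18 on plate 2), negative in 6 of 8 gates. With Nr1d2 (Rev-erb beta) it was 0.10, positive in 7 of 8 gates, and with Per2 0.07, positive in 8 of 8. Bhlhe41, a repressor of E-box genes, was negative in 8 of 8 gates at -0.14, and Arntl (Bmal1, an activator of the clock) in 8 of 8 at -0.12. Over whole plates the rho with Arntl was positive, 0.175 on plate 1 and 0.0998 on plate 2. Nfil3, a repressor at D-box elements, had the highest mean rho of the clock genes with Ncam1, 0.214, positive in 7 of 8. With total counts per cell the mean rho of Ncam1 was 0.02.

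Among 8969 other genes whose log2 CPM averaged 3 or more, the 5 whose pattern over cells was most like that of Ncam1 were Thy1 (mean rho 0.467), Marcks (0.456), Rps25 (0.424), Naalad2 (0.389) and Sept2 (0.388). Thy1 is a lipid-anchored immunoglobulin-type surface protein of fibroblasts, Marcks a membrane-bound actin-binding kinase substrate, and Rps25 a protein of the small ribosomal subunit. The middle 95% of all these genes had a mean rho between -0.19 and 0.21. The gates were uneven: rho ran from 0.02 to 0.735 for Thy1, -0.005 to 0.663 for Marcks and -0.08 to 0.713 for Naalad2. It ran from 0.301 to 0.639 for Rps25 and from 0.216 to 0.511 for Sept2. Of the 5, Thy1, Marcks and Rps25 also fell along the bins, by 0.45 ± 0.07, 0.36 ± 0.03 and 0.10 ± 0.01 log2 per bin (adjusted p = 0.00844, 7.3e-04 and 0.00573). Naalad2 (-0.28 ± 0.13, adjusted p = 0.184) and Sept2 (0.00 ± 0.01, adjusted p = 0.883) were not called.

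Genes that moved most along the Venus axis in other groups were also ordered by Ncam1 within gates; they were picked after their values were seen. Itga11, a collagen-binding integrin subunit, had a mean rho of 0.344 and Rnase4, a secreted ribonuclease, 0.298, each positive in 8 of 8 gates. Parvg, a parvin, and Scrn1, a secernin, had -0.45 and -0.41, negative in 8 of 8, and were the 2 lowest of the 8969. Itga11 and Rnase4 fell along the bins, by 0.69 ± 0.05 and 0.83 ± 0.03 log2 per bin, and Parvg and Scrn1 rose by 0.85 ± 0.11 and 0.99 ± 0.11.

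Of the 5 genes most like Ncam1, Thy1, Rps25 and Naalad2 lie on the same chromosome, 9, in the mouse RefSeq annotation of GRCm38.p6. The annotation served only for the order of genes, since the counts rest on GRCm39, and the comparison was chosen after these values were seen. Of the compared genes on chromosome 9, 154 lie on the side of Ncam1 toward the first gene and 354 on the other side. In blocks of 25 consecutive genes counted outward from Ncam1, the median rho with Ncam1 was 0.117 to 0.161 in each of the 7 blocks before it, the last of which holds 4 genes. It was 0.150 in the first block after it. In the next block it was 0.03, and it stayed between -0.00 and 0.05 over the remaining 14 blocks after the first. The step was present on each plate, from 0.132 to 0.01 on plate 1 and from 0.153 to 0.06 on plate 2.

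Together, the 179 genes up to the end of that first block had a median rho of 0.140 with Ncam1, and 169 of them were positive (94.4%). The 329 beyond it had a median of 0.03, with 62.9% positive, near the 0.01 and 56.4% of all compared genes. Along the Venus bins, 39 of the 179 fell and 4 rose, that is 21.8% and 2.23%. Of the 329, 23 fell and 40 rose, 6.99% and 12.2%, and of all compared genes 14.9% fell and 10.5% rose. The median trend of the 179 was -0.07 log2 per bin against -0.58 for Ncam1 itself. The border between the sets was drawn from these values, so the contrast between them is a description. What else these genes share was not tested. Over all 508 compared genes of chromosome 9 the median rho with Ncam1 was 0.059, below its 0.072 with chromosome 5 and 0.067 with chromosome 13. Over its own whole chromosome, Cd44 had a median of 0.071, below its 0.085 with chromosome 15. For Cdh2, Gja1, Vcam1 and Alcam the median over their own chromosome was 0.02, 0.03, -0.02 and -0.05; stretches within those chromosomes were not examined.

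**Figure D5:**
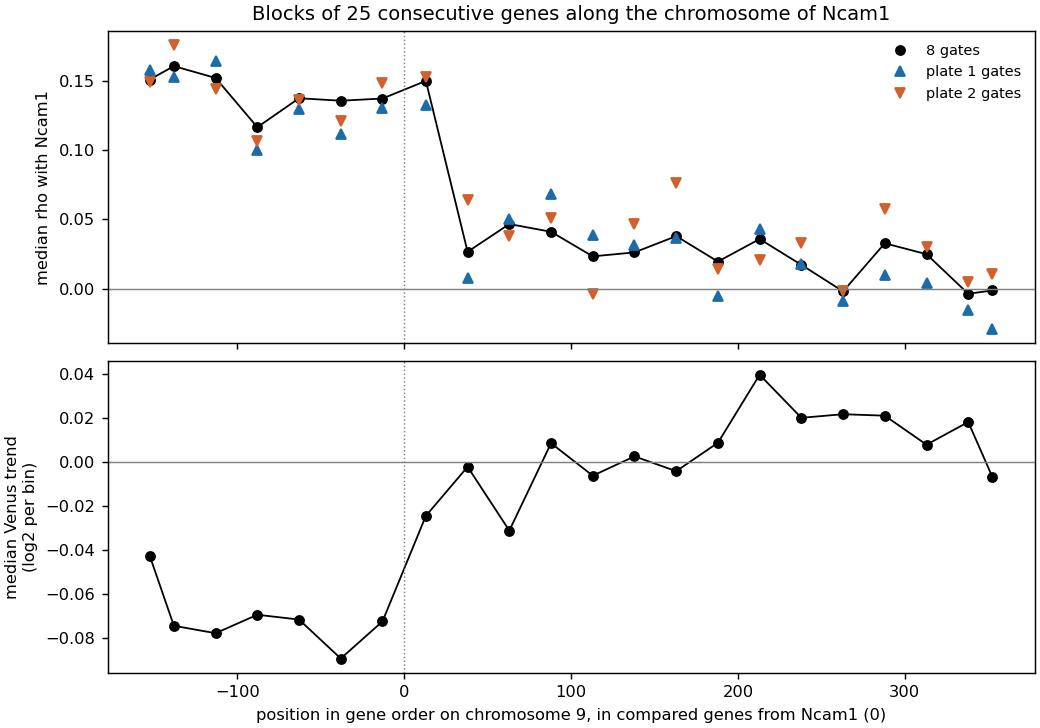
Top, median Spearman rho with Ncam1 within gates for blocks of 25 consecutive genes on chromosome 9, ordered along the chromosome (horizontal axis, in compared genes from Ncam1), for all 8 gates and for each plate. Bottom, median log2 change per Venus bin of the same blocks. The correlation steps from 0.150 to 0.03 after the first block beyond Ncam1, and the blocks before Ncam1 have median trends from -0.04 to -0.09.

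The genes most like the other members were of different kinds. Cdh2 was nearest to Lox (0.403), Col11a1 (0.356) and Col4a5 (0.351), a collagen cross-linking enzyme and 2 collagen chains, each positive in 8 of 8 gates. Cd44 was nearest to Gm14005 (0.459), Rdh10 (0.441) and Etv1 (0.440), and Alcam to Sub1 (0.380), Ifitm3 (0.358) and Fth1 (0.349). Vcam1 was nearest to Phyh (0.364), Ptn (0.327) and Naalad2 (0.317), the last of which is also among the 5 of Ncam1. Gja1 was nearest to Rhoa (0.294), Sept7 (0.276) and Gspt1 (0.268). Lox and Col11a1 fell along the bins as Cdh2 did, by 0.15 ± 0.03 and 0.16 ± 0.03 log2 per bin (adjusted p = 0.0106 and 0.0197).

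A wider list of 135 cell contact genes, 111 of them in the table used, put these members in context. Of 91 tested, 5 rose, 13 fell and 73 were not called, 19.8% called against 15.4% of all genes, of which 6.78% rose and 8.64% fell. The median trend of the 91 was 0.00 log2 per bin, as it was over all genes. Thy1 was the only one past the threshold whose trend reached 0.3 log2 per bin and whose log2 CPM averaged 3 or more. It stood at 85.5, 87.6, 92.0 and 31.1 CPM on plate 1 and 74.1, 71.2, 41.1 and 31.2 CPM on plate 2, so it left its bin 1 level later than Ncam1 did.

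Of 19 cadherins and protocadherins tested, 1 rose and 2 fell. Fat1, an atypical cadherin, rose by 0.10 ± 0.02 log2 per bin, and Pcdh18 (-0.21 ± 0.02) and Pcdh19 (-0.13 ± 0.03) fell. Of 16 catenins and adherens junction proteins, none rose and 2 fell, Jup (plakoglobin, -0.22 ± 0.02) and Ctnna1 (alpha-catenin, -0.07 ± 0.02). Ctnnb1 (beta-catenin), which binds the cadherin tail, was not called at 0.02 ± 0.02 (adjusted p = 0.428). Jup had 143, 116, 108 and 99.1 CPM on plate 1 and 140, 107, 88.2 and 88.3 CPM on plate 2. These and the following genes outside the naming rule were chosen after their values were seen.

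Of 15 immunoglobulin-type adhesion genes, Nptn rose (0.08 ± 0.02) and Thy1, Neo1 and Igsf8 fell. Of 8 gap junction genes and scaffolds, Gjc1 (connexin 45) fell by 0.20 ± 0.03 and none rose; Tjp1, a scaffold that binds connexin 43, was not called at 0.00 ± 0.05 (adjusted p = 0.980). Of 7 partners of Ncam1, Fgfr1, a growth factor receptor that NCAM1 can engage, fell by 0.11 ± 0.02 and Fgfr2 rose by 0.17 ± 0.04. Of 12 hyaluronan and ERM partners of Cd44, Ezr (ezrin) rose by 0.18 ± 0.03 and none fell. Of the integrin partners of Vcam1, 2 were tested: Itgb7 rose by 0.28 ± 0.05 and Itgb1 was not called at 0.01 ± 0.01 (adjusted p = 0.853).

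Of 5 sheddases, proteases that can cut adhesion proteins from the surface, Mmp14 fell by 0.28 ± 0.02 log2 per bin (adjusted p = 1.8e-04) and Adam17 by 0.09 ± 0.02. Mmp14 had 453, 382, 298 and 261 CPM on plate 1 and 455, 396, 306 and 277 CPM on plate 2, lower in each brighter bin on both. Adam10, a protease known to cut N-cadherin, was not called at -0.06 ± 0.02 (adjusted p = 0.135). Of 7 transcription factors of the cadherin switch, Snai2 (-0.17 ± 0.02) and Prrx1 (-0.10 ± 0.02) fell and the other 5 were not called. All adjusted p-values in these lists come from the edgeR fit over 18430 genes, of which 15.4% were called, 6.78% up and 8.64% down. The lists are short and none was tested as a set, so 1 or 2 calls say little about a list.

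Ncam1 and Vcam1 share exon sequence with antisense genes, Gm11149 and Gm43109, in GENCODE M21. Whether reads were counted by strand was not stated, so reads of those antisense genes cannot be told apart from their own. The other 4 members in the fit have no such overlap of exons.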

How the data were processed

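FLASH-seq, which reads whole transcripts, was run on single sorted cells with paired-end 75 bp reads after 21 and 8 PCR cycles, per the labels' protocols. Per the submitters' processing notes, the tools included STAR 2.7.11a and HTSeq, and the build was GRCm39; the annotation and the use of strand are not given in the sources used here. The authors deposited raw counts per gene and cell, with no stated molecular identifiers. Poisson and ratio intervals therefore cover only the counting of reads, without the spread from PCR copies or between cells. Fluorescence and scatter intensity per cell, in arbitrary units, come from the deposited sorting record. Every column mapped to a sample.

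Cells with at least 1000 genes, at least 0.1 of the plate median total and at most 25% mitochondrial counts were kept (762 of 768). No doublet caller was run, since wells were sorted singly. Counts were summed per plate and bin (8 sums). CPM is counts over the sum's total. edgeR 4.0.16 (quasi-likelihood test, TMM, filterByExpr, R 4.3.3) fitted 4 bins and the plate with 3 residual degrees of freedom. The trend weights bins by -3, -1, 1 and 3, divided by 10. P-values were Benjamini-Hochberg adjusted over all genes at a threshold of 0.05. Plates alone used log2 CPM with a prior count of 2. Gates divided at a median gave 16 sums with the 8 gates as blocks. The fits were checked on simulated data. limma 3.58.1 and DESeq2 1.42.0 served as alternatives.

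The plate is the labels' replicate number and enters as a block; it also carries the iRFP sort. Exon lengths come from GENCODE M21 (GRCm38), and no coordinates are given. Named genes were the 8 members, contact genes called at 0.05 whose trend reached 0.3 and whose log2 CPM averaged 3 or more, the 5 genes nearest to Ncam1 and the 3 nearest to each other member. The members and lists were chosen with earlier results of these data known.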

Additional observations from a re-analysis of the deposited data

Results flagged for a closer look

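The summed level of Vcam1 went opposite ways along the Venus bins on the 2 plates. Its trend was 0.22 log2 per bin on plate 1 alone and -0.39 on plate 2 alone, a difference of 0.62. Each plate is 1 sample, the plates also carry different iRFP sorts, and the difference was not tested. The gap rests mainly on bin 1, where Vcam1 stood at 3.88 CPM on plate 1 and 9.63 CPM on plate 2. In bin 1 of plate 2, 1 cell held 816 CPM. Split by well column, that bin stood at 17.4 and 2.07 CPM, above and below the 5.12 CPM of bin 4. The direction on plate 2 thus depends on few cells.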

How the results depend on the processing

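Of the 5 members tested along the Venus bins, 1 was called, and it was Cdh2 under every tested alternative (adjusted p from 1.3e-08 to 0.0152). The count became 2 only with limma on mean log2(CPM + 1) over cells, where Gja1 joined at 0.16. Without the replicate block it was still 1. Contact genes called went from 18 to 11 with an additive linear model and 29 with that limma fit, an alternative set for this list after the data were seen. On the limma scale, Ncam1 fell by 1.15 per bin. Vcam1 reversed, to 0.045 with limma, and its trend ran from -0.39 to 0.22 when either plate was left out. The last step of Cdh2 was 0.0017 without TMM. For Ncam1, leaving out either plate gave -0.44 to 0.062 for brighter against dimmer cells of a gate, and -0.17 to 0.18 between columns. The causes were not tested. None of the 5 members tested at single steps, and none of the 6 tested within gates, was called under any alternative run. Of 179 recomputed values, 5 changed sign. Of the 6 members in the fit, Alcam and Vcam1 had the fewest counts, 5484 and 5721 in all; Cdh11 and Cdh13, with 6 and 7, were too shallow to test.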
